A study of Mus musculus with 4 samples.

Results

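Fibroblasts lay down most of the extracellular matrix of a tumour, and these data hold the expression of 50 genes that encode its glycoproteins and proteoglycans other than collagens. The 50 were a list of core matrix genes, chosen with earlier results of these data known. All 50 were found among the 22456 genes of the deposited table after its identifiers were matched to symbols. They fall into 4 classes: 9 small leucine-rich proteoglycans, 13 genes of elastic fibres and microfibrils, 17 matricellular and adhesive glycoproteins, and 11 basement membrane genes. Of these, 48 were expressed highly enough to be tested, and Comp and Fras1 were not.

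The tumours grew in Balb/cAnN mice from 4T1 cells, a mammary carcinoma line of the same strain, placed into the mammary fat pad, and were taken 8 days after injection. The cancer cells were cultured beforehand with 5 µM GSK269962A or with DMSO as vehicle, over 5 days. The compound thus went to the cancer cells before injection and not to the fibroblasts. There are 4 libraries, 2 from tumours of DMSO-treated cells (DMSO libraries 1 and 2) and 2 from tumours of compound-treated cells (GSK libraries 1 and 2). The fibroblast fraction was the flow-through of magnetic columns that held back cells bound by antibodies to CD45, CD31, CD326 (Epcam) and hCD2, and no antibody against pericytes is listed. Whether a group's libraries came from separate animals is not stated in the labels, and p-values then measure only the spread between these samples, which may be technical.

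Small leucine-rich proteoglycans such as decorin and biglycan bind collagen fibrils and growth factors and set fibril spacing. Fibrillins, microfibril-associated proteins, fibulins and elastin build elastic fibres, while matricellular proteins such as tenascin C, periostin and the thrombospondins change how cells attach to matrix. Laminins, nidogens and the heparan sulfate proteoglycans perlecan and agrin form the basement membrane, the sheet on which epithelial and endothelial cells, muscle and nerve rest. Carcinoma-associated fibroblasts are known for abundant fibronectin, tenascin C, periostin and Sparc.

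Expression is given in log2 units as normalised by the authors, where a step of 1 is a doubling, and a difference is always GSK minus DMSO. Without read counts the sequencing depth is unknown. The libraries had a fibroblast profile: 12 fibroblast genes, 3 of them also matrix genes described here (Dcn, Lum and Fbn1), averaged 14.80 to 14.94 (log2) per library, against 4.55 to 4.61 for 10 endothelial genes, 3.57 to 3.75 for 9 pan-leukocyte genes and 3.40 to 3.56 for the 9 of 10 epithelial and 4T1 genes in the table. The defining markers of the removed cells were low, with means of 3.42 for Cdh5, 3.31 for Pecam1, 3.81 for Ptprc and 0.32 for Epcam. Some other genes of these lists were higher: Krt19 at 8.82 and Lcn2 at 6.98 (epithelial and 4T1) and Tek at 7.64 (endothelial). Flt1 and Cd53 stood above the rest of their lists, with means of 10.84 and 11.03, and were higher in both GSK libraries, by 0.51 (limma adjusted p = 0.15) and 0.91 (adjusted p = 0.115). Pericyte and smooth muscle genes averaged 10.39 and 10.60 in DMSO and 10.61 and 10.66 in GSK. Adipocyte genes averaged 4.10 to 4.13 (3 of 7 in the table), Schwann cell genes 3.77 to 3.82 and skeletal muscle genes 3.50 to 3.55. Chondrocyte and tenocyte genes averaged 3.63 to 3.65 (7 of 8) and mesothelial genes 6.28 to 6.48 (3 of 6). Single genes of these lists were higher: Fabp4 at 9.57 (adipocyte), Des at 10.22 (skeletal muscle), Sox9 at 7.75 (chondrocyte and tenocyte), and Wt1 at 10.07 and Krt19 (mesothelial). Immediate early and dissociation genes, which respond to tissue digestion, averaged 13.51 and 13.40 in DMSO and 13.19 and 13.01 in GSK.

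The comparison of GSK with DMSO asks whether fibroblasts express matrix genes at another level when the cancer cells of the tumour had been pre-treated. None of the 48 tested matrix genes passed an adjusted p of 0.05 in limma, against 0.282% of all 14548 tested genes (0.151% higher and 0.131% lower in GSK). With all libraries Emilin2, Prelp and Sparcl1 had differences of -0.44, -0.53 and 0.64. These were larger without DMSO library 2, at -0.54, -0.67 and 0.76, and smaller without DMSO library 1, at -0.34, -0.39 and 0.52. The genes with the highest values, Sparc, Fn1, Tnc, Bgn, Postn, Fbln2 and Fbn1 (not corrected for length), had estimated differences of at most 0.18 in size, and Dcn, which ranked among the first 10 per kb, was at -0.31. The differences furthest from 0 were in genes of intermediate abundance: Abi3bp at -0.65, Prelp at -0.53, Emilin2 at -0.44 and Efemp1 at -0.43, and Sparcl1 at 0.64 and Agrn at 0.45. In bulk samples, fewer cells of a type and less RNA per cell cannot be told apart.

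Of the 48 genes, 24 had a positive and 24 a negative difference, and the median was -0.01, beside -0.00 for all tested genes. The class medians were 0.00 for the leucine-rich proteoglycans, -0.02 for elastic fibre genes, -0.00 for matricellular genes and -0.02 for basement membrane genes. Without GSK library 2 the medians were -0.11, -0.12, -0.07 and -0.02, and -0.07 over the 48. At an unadjusted p under 0.05 there were 11 genes (22.9%), 3 higher and 8 lower in GSK, against 16% of all tested genes. At an adjusted p under 0.10 there were 7 genes (14.6%), 2 higher and 5 lower, against 2.5% of all tested genes (1.17% higher and 1.33% lower). This count was 0 without DMSO library 1 (0.213% of all genes) and without GSK library 2 (0.839%), 12 without GSK library 1 (2.78%) and 7 without DMSO library 2 (3.16%). It was 0 with no limit for testing (0.00445%), 3 with a variance prior that does not follow the mean (1.8%) and 4 after quantile normalisation (1.84%). It was 6 with a robust variance prior (2.99%), 7 with median centring (2.94%) and 7 with the limit raised to 50 (3.17%). With the replicate number as a block it was 16 (15.1%), though the labels do not say that the number marks a shared animal or day. Both GSK libraries lay on the same side of both DMSO libraries in 22 of the 48 genes (45.8%), against 48.6% of all genes. For 39 of the 48 genes the 95% interval of the difference lay within a change of 1.5-fold in either direction. This was a lower share than the 98% of all genes, and the median standard error was 0.084 for the 48 and 0.047 for all genes. The median size of the difference was 0.097 and 0.049. The shares of all genes were not matched for level: members averaged 12.21 to 12.27 (log2) per library and all tested genes 8.25 to 8.26. The 50 genes together made up 6.70% (library 1) and 7.16% (library 2) of the summed linear values in DMSO, and 7.09% and 7.36% in GSK, so the GSK range overlapped the DMSO range.

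**Figure D1:**
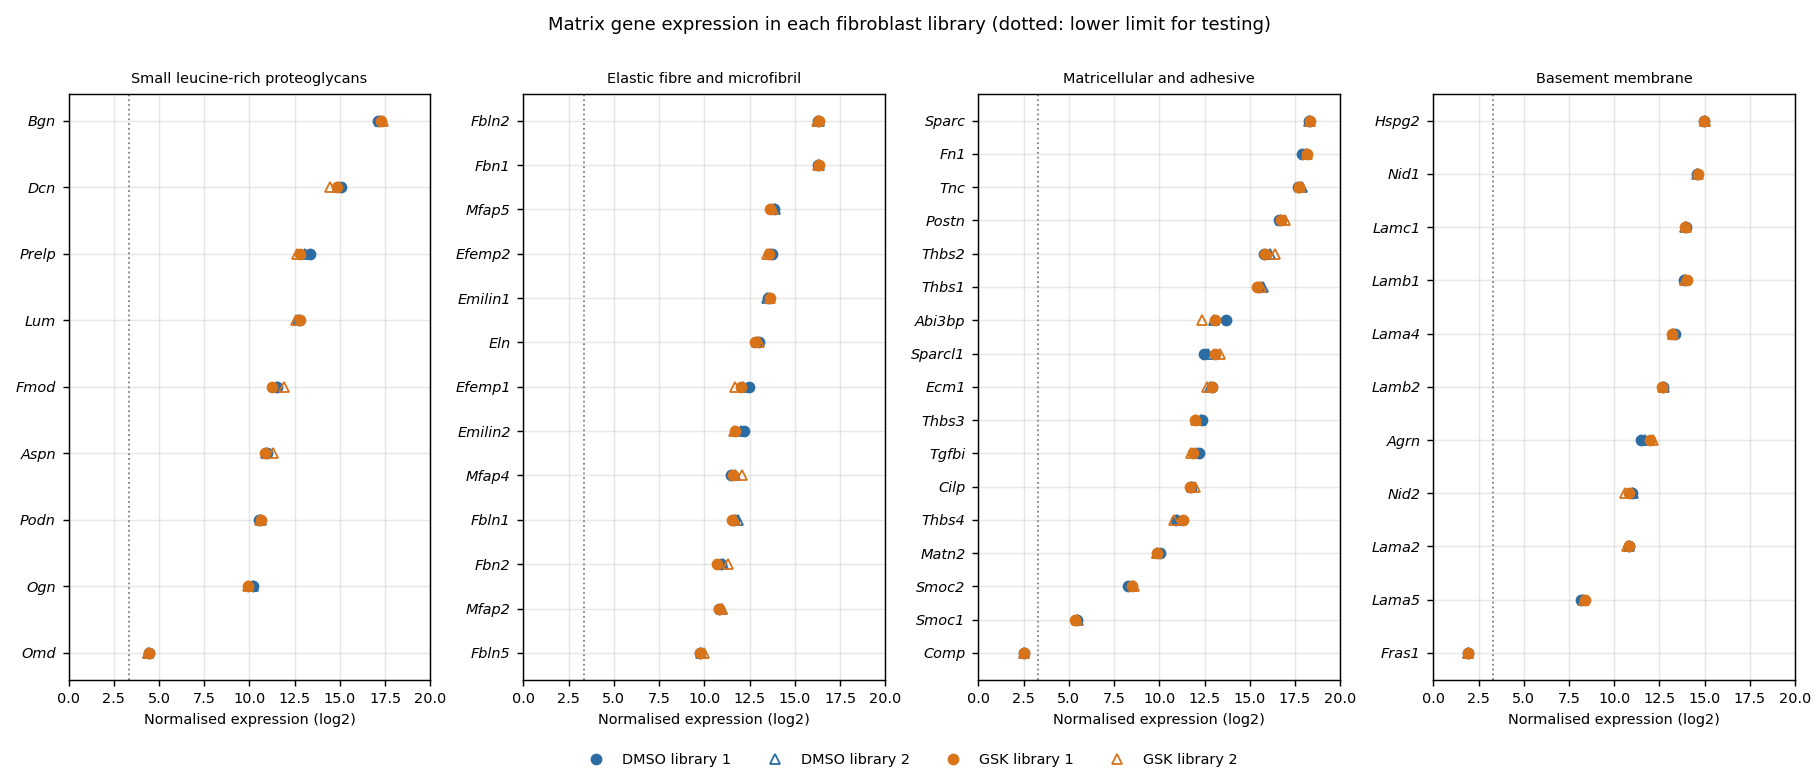
Normalised expression (log2, x axis) of the 50 matrix genes in each of the 4 libraries, by class, ordered by mean; blue marks DMSO and orange GSK, filled circles library 1 and open triangles library 2. For most genes the 4 marks nearly coincide, while those of Abi3bp, Prelp and Sparcl1 are visibly spread.

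**Figure D2:**
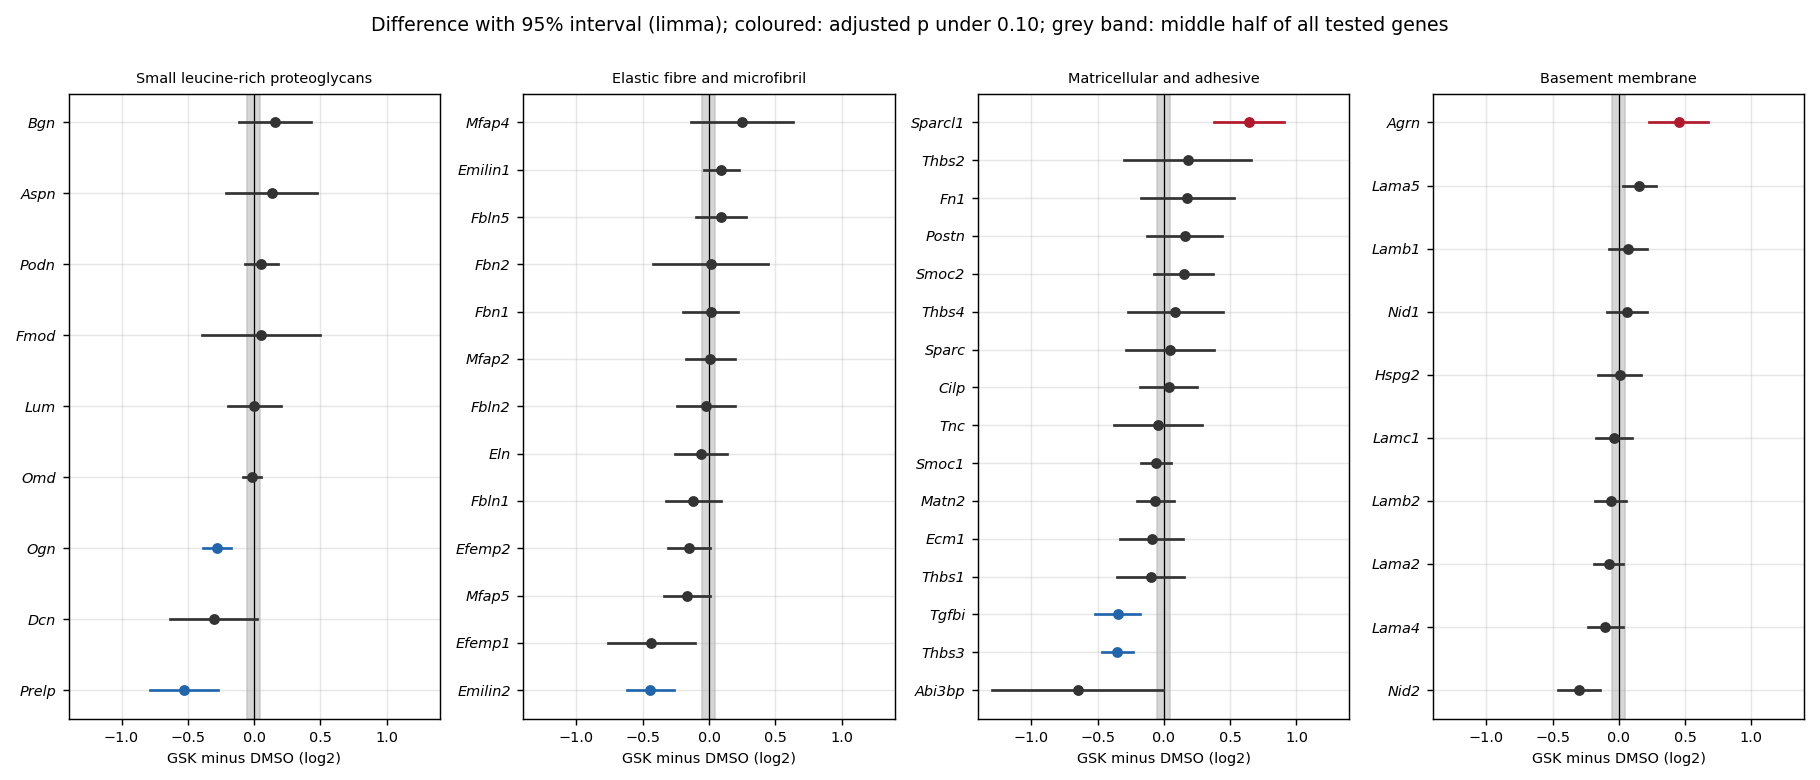
GSK minus DMSO (log2, x axis) with the 95% interval from limma for the 48 tested genes, by class; colour marks an adjusted p under 0.10 (red higher, blue lower in GSK) and the grey band spans the middle 50% of all tested genes. The 7 coloured genes are Sparcl1 and Agrn on the higher side and Prelp, Emilin2, Thbs3, Tgfbi and Ogn on the lower side; the interval of Abi3bp spans -1.30 to -0.00.

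Levels between genes were compared after subtracting log2 of the length in kb of the longest coding transcript, which gives a level per kb. Such levels, the folds between genes and the shares of summed values assume that the deposited values scale with reads per gene, which the labels do not state. On that scale Sparc, a collagen-binding matricellular protein, came first at 17.09, and its range over the 4 libraries lay apart from that of biglycan (Bgn) at 15.98. Periostin (Postn, 15.05), fibronectin (Fn1, 15.04) and tenascin C (Tnc, 14.93) followed with overlapping ranges, so their order is not resolved. Fibulin 2 (Fbln2, 14.05), decorin (Dcn, 14.01), thrombospondin 2 (Thbs2, 13.49), Mfap5 (13.20) and thrombospondin 1 (Thbs1, 13.02) made up the rest of the first 10, each overlapping its neighbour. The bottom of the order held Lama5 at 4.79, Smoc1 at 3.63, Omd at 3.24, Comp at 1.24 and Fras1 at -2.08 per kb. Of the 49 pairs of neighbours in the order, 31 overlapped in their ranges. With exon length over all annotated transcripts in place of the longest coding transcript, 9 of the first 10 genes were also among the first 10.

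**Figure D3:**
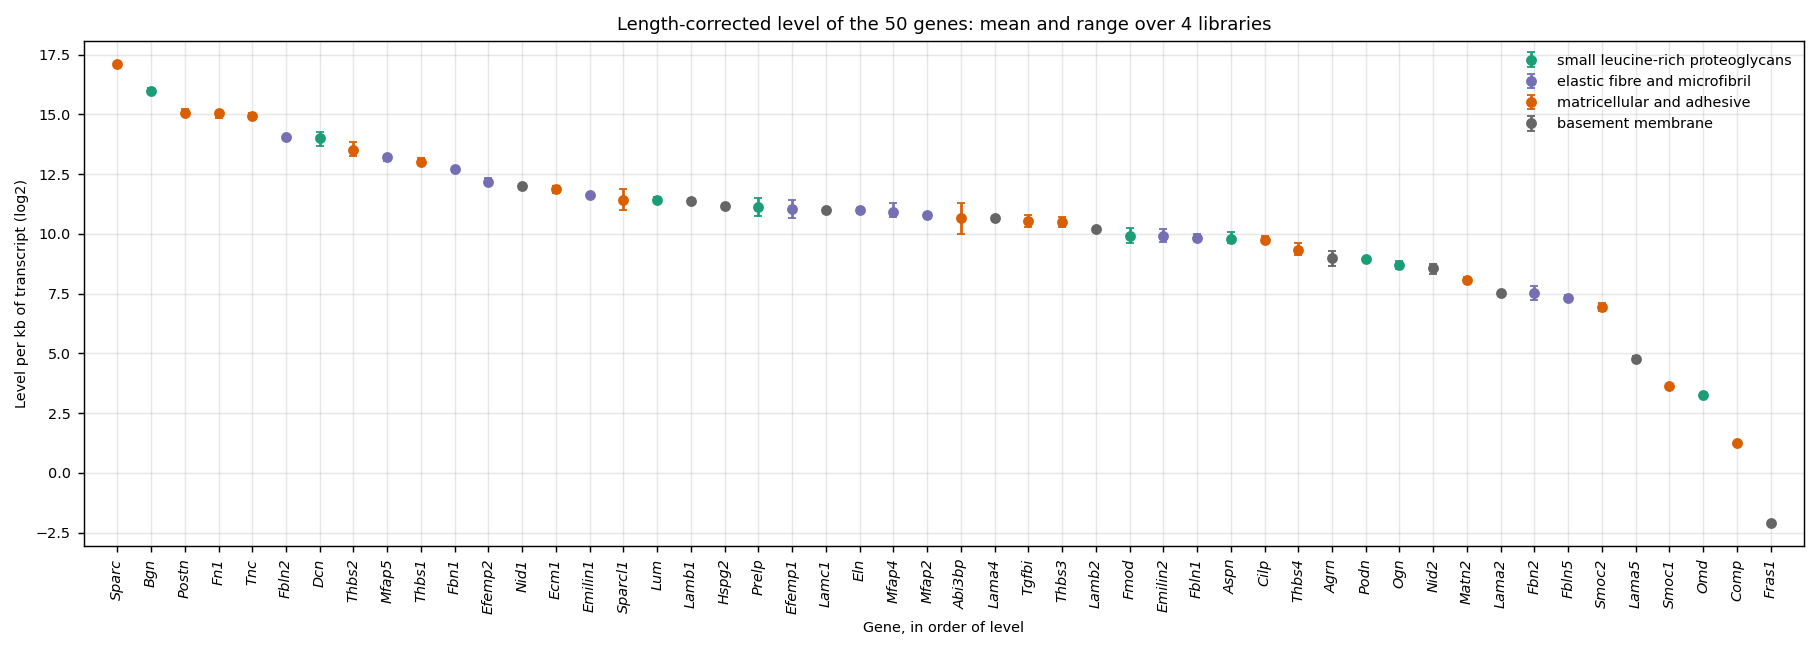
Level per kb of the longest coding transcript (log2, y axis) of all 50 genes in order, with points for the mean and bars for the range over the 4 libraries, coloured by class. Sparc and Bgn stand clear at 17.09 and 15.98, Postn, Fn1 and Tnc form a group at 14.93 to 15.05, and Fras1 is last at -2.08.

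Among the small leucine-rich proteoglycans, 5 of 9 differences were positive and 4 negative, and none passed the test. The lowest adjusted p belonged to osteoglycin (Ogn), a proteoglycan that takes part in collagen fibril formation. Ogn had 10.22 and 10.17 (log2) in DMSO and 9.92 and 9.91 in GSK. Both GSK libraries were below both DMSO libraries, by more than the spread within either group. The difference was -0.28 ± 0.04 (SE, 2 libraries per group), 1.21-fold lower, with a limma adjusted p of 0.0584. Prelp, which anchors basement membranes to the collagen below, had 13.36 and 13.09 in DMSO and 12.79 and 12.60 in GSK. The groups did not overlap, though the DMSO libraries were 0.28 apart. The difference was -0.53 ± 0.11, 1.44-fold lower (adjusted p = 0.0951).

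Decorin (Dcn), which binds TGF-beta and collagen, had 15.07 and 14.89 in DMSO and 14.86 and 14.48 in GSK. GSK library 1 was only just below DMSO library 2, and the GSK libraries were further apart (0.38) than the group means. Its difference was -0.31 ± 0.14 (adjusted p = 0.34), and -0.11 without GSK library 2. Biglycan (Bgn), its close relative and the most abundant of the class per kb, had 17.11 and 17.23 in DMSO and 17.29 and 17.37 in GSK. Its groups were apart in the other direction, with a difference of 0.16 ± 0.11 (adjusted p = 0.54). The ratio of Bgn to Dcn per kb was 1.59 and 1.88 (log2) in DMSO and 1.97 and 2.43 in GSK, a shift that was not tested. Lumican (Lum), another collagen-binding member, had 12.74 and 12.66 in DMSO and 12.82 and 12.59 in GSK, with a 95% interval of the difference from -0.20 to 0.20.

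Fibromodulin (Fmod) and asporin (Aspn), both collagen-binding, agreed closely between the DMSO libraries and were split between the GSK libraries. Fmod had 11.54 and 11.50 in DMSO, 11.26 in GSK library 1 and 11.88 in GSK library 2. Aspn had 10.96 and 10.92 in DMSO, 10.83 in GSK library 1 and 11.31 in GSK library 2. In both genes GSK library 2 was above and GSK library 1 below the DMSO libraries, so the group means of 11.57 and 11.07 describe neither GSK library. Podocan (Podn) was at 10.51 to 10.65 and osteomodulin (Omd) at 4.39 to 4.45 over the 4 libraries.

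Most of these genes sit in clusters on the chromosome (GRCm38, GENCODE M21): Prelp and Fmod on chromosome 1 (133910304 to 133921414 and 134037254 to 134048277), Dcn and Lum on chromosome 10 (97479609 to 97518143 and 97565128 to 97572703), and Aspn, Omd and Ogn on chromosome 13 (49544443 to 49567565, 49582462 to 49592822 and 49608046 to 49624501). Neighbours had unlike differences: -0.53 for Prelp and 0.05 for Fmod, -0.31 for Dcn and 0.00 for Lum, and 0.13 for Aspn, -0.02 for Omd and -0.28 for Ogn. The other cluster genes, from a list of further matrix genes, were Ecm2 beside Aspn at 0.07 and Kera beside Lum at 0.03, both with overlapping groups, and Epyc beside Kera at 0.02, below the limit for testing, with both GSK libraries above both DMSO libraries. The differences between neighbours were not tested. The 250 bases before the RefSeq start (GRCm38.p6) are shown for the members of the clusters on chromosomes 1 and 13, to set neighbours with unlike differences side by side. The windows are chr1:133921402-133921651 (minus strand) for Prelp, chr1:134037004-134037253 for Fmod, chr13:49544193-49544442 for Aspn, chr13:49582212-49582461 for Omd and chr13:49607765-49608014 for Ogn, the last 4 on the plus strand. Each is written 5′ to 3′, and capitals mark matches on either strand to 1 of 4 motifs. These were the TATA element with the letters TATAAA, the CCAAT element, the GC box with the letters GGGCGG and the AP-1 site with the letters TGANTCA.
Prelp: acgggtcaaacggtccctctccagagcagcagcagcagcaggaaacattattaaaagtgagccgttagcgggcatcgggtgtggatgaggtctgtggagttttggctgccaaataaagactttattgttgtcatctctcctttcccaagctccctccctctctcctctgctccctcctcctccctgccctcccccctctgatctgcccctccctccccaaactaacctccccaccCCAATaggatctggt
Fmod: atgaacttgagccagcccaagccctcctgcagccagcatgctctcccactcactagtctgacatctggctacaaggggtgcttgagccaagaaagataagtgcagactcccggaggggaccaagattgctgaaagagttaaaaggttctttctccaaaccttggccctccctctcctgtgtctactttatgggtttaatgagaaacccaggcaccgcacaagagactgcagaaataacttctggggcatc
Aspn: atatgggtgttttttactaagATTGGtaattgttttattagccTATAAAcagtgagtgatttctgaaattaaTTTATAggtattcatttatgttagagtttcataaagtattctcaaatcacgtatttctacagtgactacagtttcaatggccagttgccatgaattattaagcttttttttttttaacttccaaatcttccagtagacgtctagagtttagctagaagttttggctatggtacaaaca
Omd: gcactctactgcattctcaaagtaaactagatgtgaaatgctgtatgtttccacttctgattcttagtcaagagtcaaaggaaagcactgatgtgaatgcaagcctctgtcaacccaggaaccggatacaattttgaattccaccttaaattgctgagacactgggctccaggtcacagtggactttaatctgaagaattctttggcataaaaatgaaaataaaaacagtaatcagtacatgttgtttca
Ogn: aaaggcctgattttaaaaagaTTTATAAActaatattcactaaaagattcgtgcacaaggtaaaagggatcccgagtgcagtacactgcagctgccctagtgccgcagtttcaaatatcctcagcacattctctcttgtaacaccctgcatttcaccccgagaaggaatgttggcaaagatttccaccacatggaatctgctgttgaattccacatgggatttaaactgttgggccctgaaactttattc
The Prelp window held a CCAAT match 15 bases before the start, and those of Fmod and Omd held no match to any of the 4 motifs. The Aspn window held TATAAA matches on both strands, 207 and 178 bases before the start, and a CCAAT match at 229. The Ogn window held 2 TATAAA matches, at 229 and 227 bases on opposite strands, which overlap. Windows were matched for 32 of the 50 genes (42 windows). TATAAA was in 16.7% of these and in 12.4% of all 32851 windows, the CCAAT element in 19% and 33.8%, the GC box in 57.1% and 32.7%, and the AP-1 site in 4.76% and 6.75%. A match describes the letters only, and says nothing of whether a factor binds there.

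**Figure D4:**
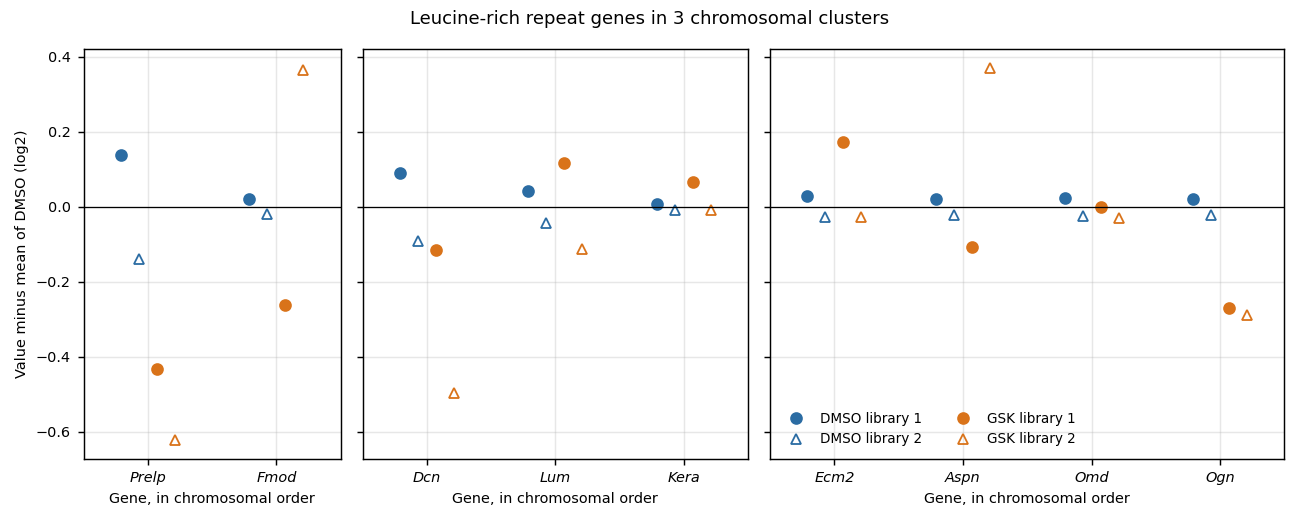
Value of each library minus the mean of the DMSO libraries (log2, y axis) for leucine-rich repeat genes in chromosomal order in 3 clusters; blue marks DMSO and orange GSK, filled circles library 1 and open triangles library 2. Both GSK libraries are below DMSO for Prelp, Dcn and Ogn, while those of Fmod and Aspn fall on either side of it.

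Among the 13 elastic fibre and microfibril genes, 6 differences were positive and 7 negative, and none passed the test. The main structural genes were close in the 4 libraries. Fibrillin 1 (Fbn1), the backbone of microfibrils, had 16.27 and 16.32 (log2) in DMSO and 16.31 and 16.30 in GSK, with a 95% interval of the difference from -0.20 to 0.22. Elastin (Eln) had 13.04 and 12.90 in DMSO and 12.81 and 13.00 in GSK, and fibulin 2 (Fbln2) ran from 16.24 to 16.35. The groups of all 3 overlapped. Fibrillin 2 (Fbn2), the developmental relative of Fbn1, was 36.5-fold lower than Fbn1 per kb (29.4 to 45.1 over the libraries). It was again split between the GSK libraries, at 10.70 and 11.30, around 10.93 and 11.05 in DMSO.

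Emilin 2 (Emilin2), a glycoprotein of the elastin and microfibril interface, had the lowest adjusted p of the class. It had 12.20 and 12.00 in DMSO and 11.69 and 11.62 in GSK. The groups were apart by more than the spread within them. Its difference was -0.44 ± 0.07, 1.36-fold lower, with an adjusted p of 0.0653. Its relative Emilin1, which restrains TGF-beta processing, had 13.54 and 13.48 in DMSO and 13.60 in both GSK libraries, a difference of 0.09 ± 0.05 (adjusted p = 0.46). The ratio of Emilin1 to Emilin2 per kb was 1.38 and 1.51 (log2) in DMSO and 1.95 and 2.01 in GSK, which was not tested.

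The fibulin-like Efemp1 (fibulin 3) had 12.45 and 12.15 in DMSO and 12.04 and 11.70 in GSK. Library 1 was above library 2 by 0.30 in DMSO and 0.34 in GSK. The difference between the groups was -0.43 ± 0.14 (adjusted p = 0.199), and -0.27 without GSK library 2. Efemp2 (fibulin 4), which is needed for elastin cross-linking, had 13.72 and 13.60 in DMSO and 13.55 and 13.47 in GSK (-0.15 ± 0.07, adjusted p = 0.323). Mfap5, a microfibril-associated glycoprotein, had 13.84 and 13.91 in DMSO and 13.63 and 13.79 in GSK (-0.16 ± 0.07, adjusted p = 0.335, and -0.09 without GSK library 1). In these 3 genes both GSK libraries were below both DMSO libraries. Mfap4, another microfibril-associated protein, had 11.49 and 11.69 in DMSO and 11.59 and 12.10 in GSK, so its difference of 0.25 rests on GSK library 2 and was 0.50 without GSK library 1 and -0.00 without GSK library 2. Fbln1, Fbln5 and Mfap2 had overlapping groups and differences of -0.12, 0.09 and 0.01.

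Among the matricellular and adhesive genes 16 of 17 were tested, with 8 differences positive and 8 negative, and none passed. Fibronectin (Fn1), the glycoprotein that cells assemble into fibrils through integrins, had 17.90 and 18.12 (log2) in DMSO and 18.18 and 18.19 in GSK. GSK lay just above DMSO library 2, and the difference of 0.18 ± 0.14 (adjusted p = 0.591) was smaller than the gap of 0.22 between the DMSO libraries and was 0.07 without DMSO library 1. Tenascin C (Tnc), an anti-adhesive protein of tumour stroma, had 17.66 and 17.89 in DMSO and 17.71 and 17.76 in GSK, with overlapping groups. Periostin (Postn), which supports collagen cross-linking, had 16.60 and 16.71 in DMSO and 16.70 and 16.92 in GSK (0.16 ± 0.12, adjusted p = 0.553), with GSK library 1 just under DMSO library 2, and 0.05 without GSK library 2. Sparc had 18.29 and 18.25 in DMSO and 18.31 and 18.32 in GSK and the 95% interval of its difference ran from -0.28 to 0.38.

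Sparcl1 (hevin), a relative of Sparc, had 12.45 and 12.69 in DMSO and 13.08 and 13.34 in GSK. Both GSK libraries were above both DMSO libraries. Its difference of 0.64 ± 0.11, 1.56-fold higher, was the highest of the 48 genes, with an adjusted p of 0.0703. The ratio of Sparc to Sparcl1 per kb was 6.10 and 5.83 (log2) in DMSO and 5.49 and 5.24 in GSK, which was not tested. Sparcl1 is also made by pericytes and endothelial cells, as background. Of the 12 pericyte and smooth muscle genes 9 had a positive difference, with a median of 0.16, and none passed the test. Both GSK libraries were above both DMSO libraries in 5 of them (Cspg4 at 0.49, Rgs5 at 0.27) and below in 3 (Kcnj8 at -0.21, Ndufa4l2 at -0.14 and Abcc9 at -0.12). Over all tested genes the shares were 24.1% above and 24.5% below. Of the 6 tested endothelial genes 4 had a positive difference, with a median of 0.02, with Flt1 at 0.51 in the same direction as Sparcl1, while Pecam1 and Cdh5 had means of 3.31 and 3.42. The part of either list in the Sparcl1 value was not tested.

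The thrombospondins are calcium-binding glycoproteins that differ in domain make-up. Thbs3, of the pentameric subgroup, had 12.37 and 12.30 in DMSO and 11.96 and 12.00 in GSK. The DMSO libraries differed by 0.06 and the GSK libraries by 0.04, and the groups were apart. The difference was -0.35 ± 0.05, 1.28-fold lower, with an adjusted p of 0.0564, the lowest of the 48 genes. Thbs1, an inhibitor of angiogenesis, had 15.52 and 15.72 in DMSO and 15.43 and 15.61 in GSK, with overlapping groups (-0.10 ± 0.11, adjusted p = 0.685, and -0.00 without DMSO library 2). Thbs2 had 15.81 and 16.10 in DMSO and 15.86 and 16.42 in GSK, and Thbs4 had 10.91 and 11.00 in DMSO and 11.29 and 10.80 in GSK, both overlapping. Comp, which forms pentamers as well, was at 2.50 to 2.52, below the limit for testing.

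The promoter window of Thbs3 (GRCm38.p6, chr3:89214930-89215179, plus strand, 250 bases before the start) is shown since this gene had the lowest p, with capitals as above.
Thbs3: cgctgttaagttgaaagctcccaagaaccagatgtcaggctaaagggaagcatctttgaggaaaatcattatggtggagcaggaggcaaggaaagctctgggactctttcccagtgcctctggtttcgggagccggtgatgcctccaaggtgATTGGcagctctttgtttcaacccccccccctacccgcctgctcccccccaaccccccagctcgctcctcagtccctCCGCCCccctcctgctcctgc
It held a CCAAT match 98 bases and a GGGCGG match 21 bases before the start, both on the opposite strand. Exons of Thbs3 overlap those of Mtx1, on the opposite strand, over 318 bases. Mtx1 had a mean of 9.02 and a difference of -0.03. No source used here gives the strand setting of the counting, so reads in that stretch cannot be assigned with certainty.

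Tgfbi, a TGF-beta-induced adhesion protein, had 12.22 and 12.08 in DMSO and 11.87 and 11.73 in GSK. The groups were apart, with a difference of -0.35 ± 0.07, 1.27-fold lower (adjusted p = 0.0948). Abi3bp had 13.69 and 13.05 in DMSO and 13.05 and 12.38 in GSK. DMSO library 2 and GSK library 1 had nearly the same value, and library 1 exceeded library 2 by 0.64 in DMSO and 0.67 in GSK. The groups differed by -0.65 ± 0.27 (adjusted p = 0.308). The remaining genes of the class (Matn2, Ecm1, Smoc1, Smoc2 and Cilp) had overlapping groups and differences from -0.09 to 0.15.

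Among the basement membrane genes 10 of 11 were tested, with 5 differences positive and 5 negative, and none passed. In 8 of the 10 genes the groups were apart, 4 above and 4 below, against 24.1% of all genes above and 24.5% below. The laminin chains, which assemble as trimers of an alpha, a beta and a gamma chain, were led per kb by Lamb1 (11.39), Lamc1 (11.01) and Lama4 (10.66), the alpha chain of mesenchymal and vascular laminins. Lama4 was 8.72-fold above Lama2 per kb (8.32 to 9.00 over the libraries) and 58.6-fold above Lama5 (52.1 to 67.9), and Lamb1 was 2.27-fold above Lamb2. This order was the same in each of the 4 libraries. Lama4 had 13.34 and 13.27 (log2) in DMSO and 13.18 and 13.22 in GSK, a difference of -0.10 ± 0.06 (adjusted p = 0.423), and Lamc1 had a 95% interval from -0.18 to 0.10. Lama5, the alpha chain of mature epithelial and endothelial basement membranes, had 8.17 and 8.26 in DMSO and 8.40 and 8.35 in GSK, 0.15 ± 0.05 (adjusted p = 0.22). Lama2, Lamb1 and Lamb2 had groups apart by small differences of -0.08, 0.07 and -0.06.

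Agrin (Agrn), a heparan sulfate proteoglycan, had 11.50 and 11.71 in DMSO and 11.96 and 12.16 in GSK. Both GSK libraries were above both DMSO libraries, while library 2 exceeded library 1 by 0.20 in DMSO and 0.21 in GSK. Its difference was 0.45 ± 0.09, 1.37-fold higher (adjusted p = 0.0961). Perlecan (Hspg2), the other heparan sulfate proteoglycan and 4.60-fold above Agrn per kb, had 14.97 and 15.02 in DMSO and 14.99 and 15.01 in GSK, with a 95% interval from -0.16 to 0.17. Beside the Agrn value, the pericyte and smooth muscle genes averaged lowest in DMSO library 1, as given above, and their part in it was not tested.

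The nidogens link laminin to type IV collagen. Nid1 had 14.60 and 14.56 in DMSO and 14.65 and 14.64 in GSK, 0.06 ± 0.06 (adjusted p = 0.672). Nid2 had 11.01 and 11.02 in DMSO and 10.81 and 10.62 in GSK, with the groups apart, -0.30 ± 0.07 (adjusted p = 0.113). The ratio of Nid1 to Nid2 per kb was 3.27 and 3.22 (log2) in DMSO and 3.52 and 3.69 in GSK, which was not tested. Exons of Nid2 overlap those of Rtraf on the opposite strand over 437 bases, and Rtraf had a mean of 11.01 and a difference of -0.08, so the Nid2 value is uncertain to that extent. The Prelp and Fbn1 transcripts likewise overlap the opposite-strand genes Gm15851 (350 bases, mean 0.79) and Gm9913 (2442 bases, mean 6.59). Other members with such overlaps include Efemp2 with Mus81 (173 bases, mean 7.85), Mfap4 with Mapk7 (89 bases, mean 9.33) and Tnc with 8030451A03Rik (176 bases, mean 8.27).

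The 7 genes with an adjusted p under 0.10 kept the sign of their difference with each library left out in turn, as did 30 of the 48 genes. The groups of the 7 genes did not overlap, so leaving out a single library could not change the sign, and only the sizes are informative. Ogn stayed between -0.30 and -0.26, Thbs3 between -0.38 and -0.32, Emilin2 between -0.54 and -0.34 and Prelp between -0.67 and -0.39. Tgfbi stayed between -0.42 and -0.28, Agrn between 0.35 and 0.56 and Sparcl1 between 0.51 and 0.77. Abi3bp ranged more widely, from -0.98 to -0.32. Of the 15 immediate early and dissociation genes, 13 (86.7%) had both GSK libraries below both DMSO libraries, against 24.5% of all genes. Their median was -0.25, and 2 of them (Hspa1a and Hspa1b) fell, against 0.131% of all genes. The 4 tested epithelial and 4T1 genes all had negative differences (median -0.18, none called, Epcam below the limit for testing). Their part in the lower values of matrix genes was not tested.

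**Figure D5:**
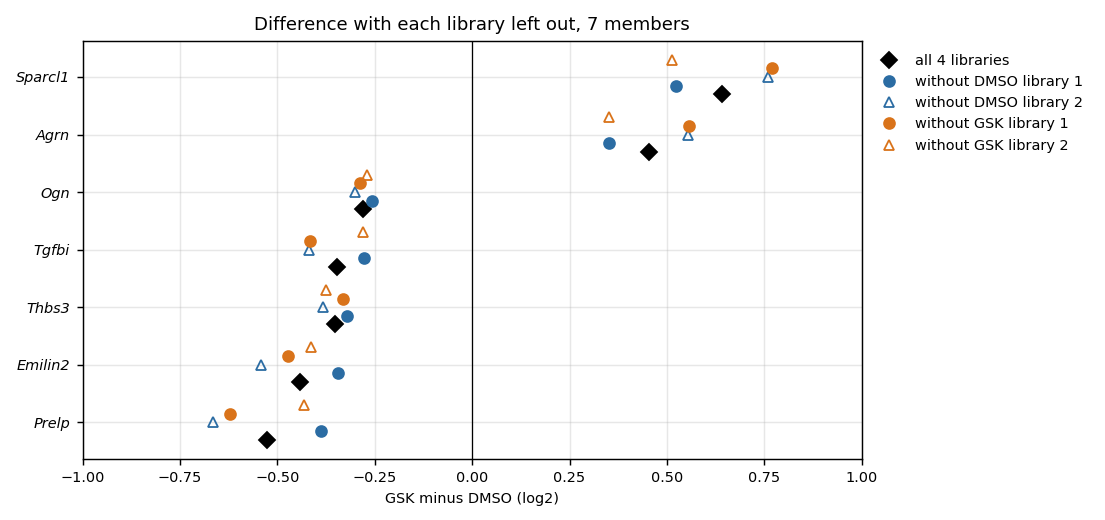
GSK minus DMSO (log2, x axis) of the 7 genes with an adjusted p under 0.10, with all 4 libraries (black diamonds) and with each library left out (blue DMSO, orange GSK; filled circles library 1, open triangles library 2). No mark crosses 0, as none can where the groups do not overlap. Leaving out DMSO library 1 or GSK library 2 brings most genes closer to 0.

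Other genes of the matrix and of its assembly were taken from lists that share no gene with the 50. Of 61 tested further glycoproteins and proteoglycans, 1 fell and none rose over all genes tested, against 0.131% and 0.151% of all genes, and the median difference was 0.01. At an unadjusted p under 0.05 there were 25 (41.0%), 13 higher and 12 lower, against 16% of all genes. The gene that fell was tenascin X (Tnxb), a collagen-binding member of the tenascin family, with 13.92 and 13.76 in DMSO and 13.17 and 13.21 in GSK (-0.65 ± 0.07, adjusted p = 0.0366). It kept its direction but missed the threshold without DMSO library 1 (adjusted p = 0.112), GSK library 1 (0.0543) or GSK library 2 (0.0682). The next smallest p-values were those of Ccn5, of the cellular communication network family, at -0.41 ± 0.05 (adjusted p = 0.0504) and of tenascin N (Tnn) at -0.67 ± 0.10 (adjusted p = 0.0584). The tested tenascins therefore had values of -0.04 for Tnc, -0.65 for Tnxb and -0.67 for Tnn, and whether they differ from each other was not tested. Tenascin R (Tnr), with a mean of 2.08, was below the limit for testing.

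Of 34 tested genes for glycosaminoglycan chains, the sugar chains that proteoglycan cores such as Dcn, Bgn, Hspg2 and Agrn carry, none passed the test and 5 (14.7%) had an unadjusted p under 0.05, against 16% of all genes. Csgalnact1, which starts chondroitin chains, was at -0.30 ± 0.05 (adjusted p = 0.0584), Hs6st2, a heparan sulfate sulfotransferase, at 0.27 ± 0.05 (adjusted p = 0.0953) and Chst13, a chondroitin sulfotransferase, at 0.15 ± 0.04 (adjusted p = 0.156). Of 27 matrix receptors and elastic cross-linking enzymes none passed and 8 (29.6%) had an unadjusted p under 0.05, against 16% of all genes, 7 of them higher in GSK. The integrin chains Itgb5, Itga1 and Itga7 had the smallest p, at 0.34 ± 0.06 (adjusted p = 0.0688), 0.25 ± 0.05 (adjusted p = 0.112) and 0.25 ± 0.06 (adjusted p = 0.126).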

How the data were processed

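RNA from fibroblasts of 4T1 tumours was sequenced (2 DMSO and 2 GSK libraries). The authors deposited normalised log2 values for 22456 Ensembl genes, from -1.04 to 20.58. Tools listed by the submitters' processing notes, without roles, are Bowtie2, RSEM 1.2.29 and DESeq2 1.12.4, with builds GRCh38 and mm10. That the deposited values are log2 was read from their range; the sources used here do not give the transformation, the annotation or the strand setting. The low genes vary little between libraries, so differences of low genes may be understated. No sample column was left unused. GENCODE M21 matched 22357 identifiers.

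Genes whose mean over the 4 libraries reached 3.32 (log2 of 10) were tested with limma 3.58.1 in R 4.3.3: group only, variance prior following the mean, two-sided, Benjamini-Hochberg adjustment over all 14548 genes, threshold 0.05, no pseudocount. SE is limma's moderated standard error and intervals are 95% limma intervals. The rule for values by library took members past the threshold, the 4 smallest p per class, and Dcn, Lum, Fn1, Tnc, Postn, Sparc, Thbs1, Eln, Fbn1, Lama4 and Hspg2; other members with values by library (Fmod, Aspn, Fbn2, Emilin1, Mfap4, Thbs2, Thbs4 and Nid1), and the markers named singly, were chosen after their values were seen. From the further lists it took members past the threshold and the 3 smallest p. The members and lists, and the placing of members in classes, were chosen with earlier results of these data known. Similar transcripts were sought with blastn 2.17.0 (98% identity over 200 bases). The procedure was tested on simulated data with independent deviations, where 87% of changes of 0.5 (log2) and 100% of changes of 1 were called, with 12 false calls. Deviations shared by same-numbered libraries were not simulated, so these rates need not hold for the libraries here. Alternatives were other filters, quantile normalisation, median centring, a prior without trend or robust, a replicate block, a threshold of 0.10 and each library left out.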

Additional observations from a re-analysis of the deposited data

How the results depend on the processing

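With libraries left out the median difference ran from -0.065 to 0.014 over all 48 members, -0.11 to 0.0086 for leucine-rich proteoglycans, -0.12 to 0.0068 for elastic fibre, -0.065 to 0.049 for matricellular and -0.023 to 0.0013 for basement membrane genes, each lowest without GSK library 2; the last was -0.0097 after quantile normalisation, and the other settings moved no class median by more than the spread between replicates. The count of members called was 0 with no filter (0.00445% of all tested genes) and with a filter at a mean of 50 (0.287%). It was also 0 after quantile normalisation (0.158%) and with a prior without trend (0.0756%). With median centring it was 1 (2.08%, Thbs3), against 0.866% of all tested genes. With a robust prior it was 2 (4.17%, Ogn and Thbs3), against 0.949%. At a threshold of 0.10 it was 7 (14.6%), against 2.5%. With single libraries left out it ran from 0 to 3, with 3 (Emilin2, Prelp and Sparcl1) without DMSO library 2. Over all genes, 41 were called, against 1 with no filter, 23 after quantile normalisation, 126 with median centring, 11 without trend, 138 with a robust prior and 363 at 0.10, and 7 (without DMSO library 1) to 194 (without DMSO library 2) with libraries left out. The replicate number as a block gave 1374 genes, 9.44% of those tested, and 11 members, 22.9% (Abi3bp, Agrn, Dcn, Efemp1, Emilin2, Nid2, Ogn, Prelp, Sparcl1, Tgfbi and Thbs3; Abi3bp at an adjusted p of 0.000154 and Efemp1 at 0.000586); deviations of same-numbered libraries correlated at 0.43 across genes, but the labels do not say that the number marks a shared animal or day. With libraries left out 30 of the 48 members kept their sign; the others include Thbs2 (-0.10 to 0.46), Aspn (-0.11 to 0.37), Thbs4 (-0.16 to 0.33) and Ecm1 (-0.24 to 0.054). Hspg2 was -0.054 after quantile normalisation, and left-out differences ran from -0.16 to 0.033 for Eln (positive without DMSO library 1, 0.008, or GSK library 1), -0.0095 to 0.033 for Fbn1 (negative without DMSO library 1), -0.023 to 0.034 for Hspg2 (negative without DMSO library 1 or GSK library 2), -0.11 to 0.12 for Lum (negative without DMSO library 2 or GSK library 1) and -0.16 to 0.072 for Tnc (positive without DMSO library 2). Tnxb missed the threshold in 6 alternatives (adjusted p from 0.0523 to 0.222). The cause of these changes was not tested. Depth is unknown, so small differences of low genes such as Omd and Smoc1 cannot be resolved.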
